A study of Mus musculus with 3 samples.

Results

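The 10 genes described here encode innate pattern recognition receptors, myeloid C-type lectins and their signaling partners: Cd14, Tlr2, Tlr4, Tlr7, Tlr9, Myd88, Trem1, Clec4d, Clec4e and Clec4n. They were taken as a named list, chosen with earlier results of these data known, and all 10 were among the 31053 genes of the raw tables. Single-cell RNA was measured in 3 whole tumors of TH-MYCN mice, a neuroblastoma model in which the tyrosine hydroxylase promoter drives human MYCN in neural crest derivatives. Each tumor came from a different mouse that was heterozygous for the transgene, aged 62 days (tumor 1), 79 days (tumor 2) or 63 days (tumor 3). The tumors form a single untreated group with no tumor-free tissue, so the question addressed is which cells of these tumors carried each transcript.

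The cells were those the authors kept, 1914 of 3257 barcodes in tumor 1, 1221 of 4327 in tumor 2 and 2515 of 6038 in tumor 3, with a median of 4282.5, 1594 and 1816 unique molecular identifiers (UMIs, each standing for a captured RNA molecule) per cell. Tumors 1 and 2 shared 3 kept barcodes and tumors 2 and 3 shared 1. Cells were grouped into classes by clustering on other genes, with the 10 genes held out, and each class was named by markers. UMIs were added up within each class of each tumor, for 31 sums over 12 classes. There were 236, 54 and 22 neutrophil-like cells in tumors 1, 2 and 3. The 3 monocyte/macrophage-like subsets carry the names the study used: the Ccr2+-like subset held 200, 11 and 18 cells, the Pecam1+-like subset 258, 43 and 56 and the Apoe+-like subset 152, 49 and 110. There were 204, 15 and 26 B cell-like cells and 91, 4 and 23 plasmacytoid dendritic-like cells, and the latter gave sums in tumors 1 and 3 only, since a sum needed at least 10 cells. The 4 reference classes were tumor, T cell-like, endothelial-like and cancer-associated fibroblast (CAF)-like cells.

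When the same clustering was repeated with another processor kernel of the linear algebra library, which changes rounding only, the Ccr2+-like subset held 239, 12 and 29 cells and the Apoe+-like subset 112, 47 and 98, whereas the 236, 54 and 22 neutrophil-like cells were as many as before. The subset borders are uncertain to that extent. In what follows, levels are CPM, the share of a sum's UMIs scaled to a common total. The 9 neutrophil markers summed to 45870 to 150100 CPM in neutrophil-like cells and to at most 211.9 CPM in the subsets. The 10 monocyte/macrophage markers summed to 1053 to 3395 CPM in neutrophil-like cells and to 3730 to 25760 CPM in the subsets.

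Pattern recognition receptors let innate cells sense conserved microbial products and products of damaged cells. CD14 captures lipopolysaccharide and passes it to TLR4, and TLR2 recognizes bacterial lipoproteins, both at the cell surface. TLR7 binds single-stranded RNA and TLR9 unmethylated CpG DNA inside endosomes, where they are known above all from plasmacytoid dendritic cells and B cells. MyD88 is the adaptor that carries the signal of these receptors to NF-kB. TREM1 amplifies inflammatory signals in neutrophils and monocytes through the adaptor DAP12 (Tyrobp). Dectin-2 (Clec4n), MCL (Clec4d) and Mincle (Clec4e) are C-type lectins that bind fungal and mycobacterial glycans and glycolipids, signal through the Fc receptor gamma chain (Fcer1g) and Syk, and are found mainly on myeloid cells.

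Positions are those of GENCODE M21 on GRCm38, the assembly behind the mm10 build of the submitters' processing notes, and each names a protein-coding gene. The 3 lectin genes are neighbors on chromosome 6: Clec4n lies from 123229843 to 123247021, Clec4d from 123262111 to 123275265, and Clec4e, on the other strand, from 123281789 to 123289870. The stretch of 60028 bases from the start of Clec4n to the end of Clec4e holds these 3 annotated genes and no others. Trem1 lies on chromosome 17 from 48232768 to 48246924, Tlr2 on chromosome 3 from 83836272 to 83841767, Tlr4 on chromosome 4 from 66827584 to 66930284 and Tlr7 on chromosome X from 167304929 to 167330558. Tlr9, from 106222598 to 106226883, and Myd88, from 119335934 to 119341411, are both on chromosome 9.

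A RefSeq promoter window of GRCm38.p6, from 250 bases before to 50 after the start, was given for 6 of the 10 genes. The 250 bases before the start are shown for 2 of the neighboring lectin genes and for Trem1, which among these 6 had the largest differences between neutrophil-like and monocyte/macrophage-like cells, and for Tlr2. They are written 5′ to 3′ in lower case, with matches to a searched motif in capitals as far as the printed bases go, since the last Tlr2 matches run past the start.
Clec4d, chr6:123261857-123262106, plus strand: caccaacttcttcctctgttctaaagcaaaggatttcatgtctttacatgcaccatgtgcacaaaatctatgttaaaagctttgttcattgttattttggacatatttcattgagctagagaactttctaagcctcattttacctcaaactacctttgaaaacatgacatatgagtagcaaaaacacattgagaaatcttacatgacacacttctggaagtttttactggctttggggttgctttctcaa
Clec4e, chr6:123289872-123290121, minus strand: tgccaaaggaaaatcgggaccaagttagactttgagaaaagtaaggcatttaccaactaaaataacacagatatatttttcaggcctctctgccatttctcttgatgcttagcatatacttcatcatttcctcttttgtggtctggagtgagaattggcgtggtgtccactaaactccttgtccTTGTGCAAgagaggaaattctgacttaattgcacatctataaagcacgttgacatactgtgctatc
Trem1, chr17:48232489-48232738, plus strand: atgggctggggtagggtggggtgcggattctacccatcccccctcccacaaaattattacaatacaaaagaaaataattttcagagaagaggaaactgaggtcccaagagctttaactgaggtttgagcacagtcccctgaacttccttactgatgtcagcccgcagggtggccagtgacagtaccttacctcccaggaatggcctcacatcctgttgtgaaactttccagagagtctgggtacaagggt
Tlr2, chr3:83841609-83841858, minus strand: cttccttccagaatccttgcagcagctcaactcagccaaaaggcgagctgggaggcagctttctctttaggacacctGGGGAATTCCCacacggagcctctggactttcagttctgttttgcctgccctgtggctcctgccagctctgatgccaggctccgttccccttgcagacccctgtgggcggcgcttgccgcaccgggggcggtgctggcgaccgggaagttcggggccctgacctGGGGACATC
Motifs were searched on both strands of the whole windows: GAGGAAGT for PU.1, TTGCNNAA for C/EBP, GGG and CC with any 5 bases between them for NF-kB, and GAAA repeated after any 2 bases for the interferon response element. The Clec4e window had the C/EBP letters TTGTGCAA, a match on the other strand, from position -66 to -59, with position 1 at the start of transcription, and 10.8% of the 32851 windows of 300 bases hold that motif. The Clec4d window had an interferon response match on the other strand from position 1 to 10, and the Myd88 window had one from -40 to -31, a motif held by 3.44% of windows. The Tlr2 window had 5 overlapping NF-kB matches in 2 places, at -173 to -163 and at -9 to 3, and 50.8% of windows hold that motif. The Tlr9 window had a PU.1 match on the other strand from 11 to 18, a motif held by 3.20% of windows, and the Trem1 window had none of the 4 motifs. These matches describe letters only.

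**Figure D1:**
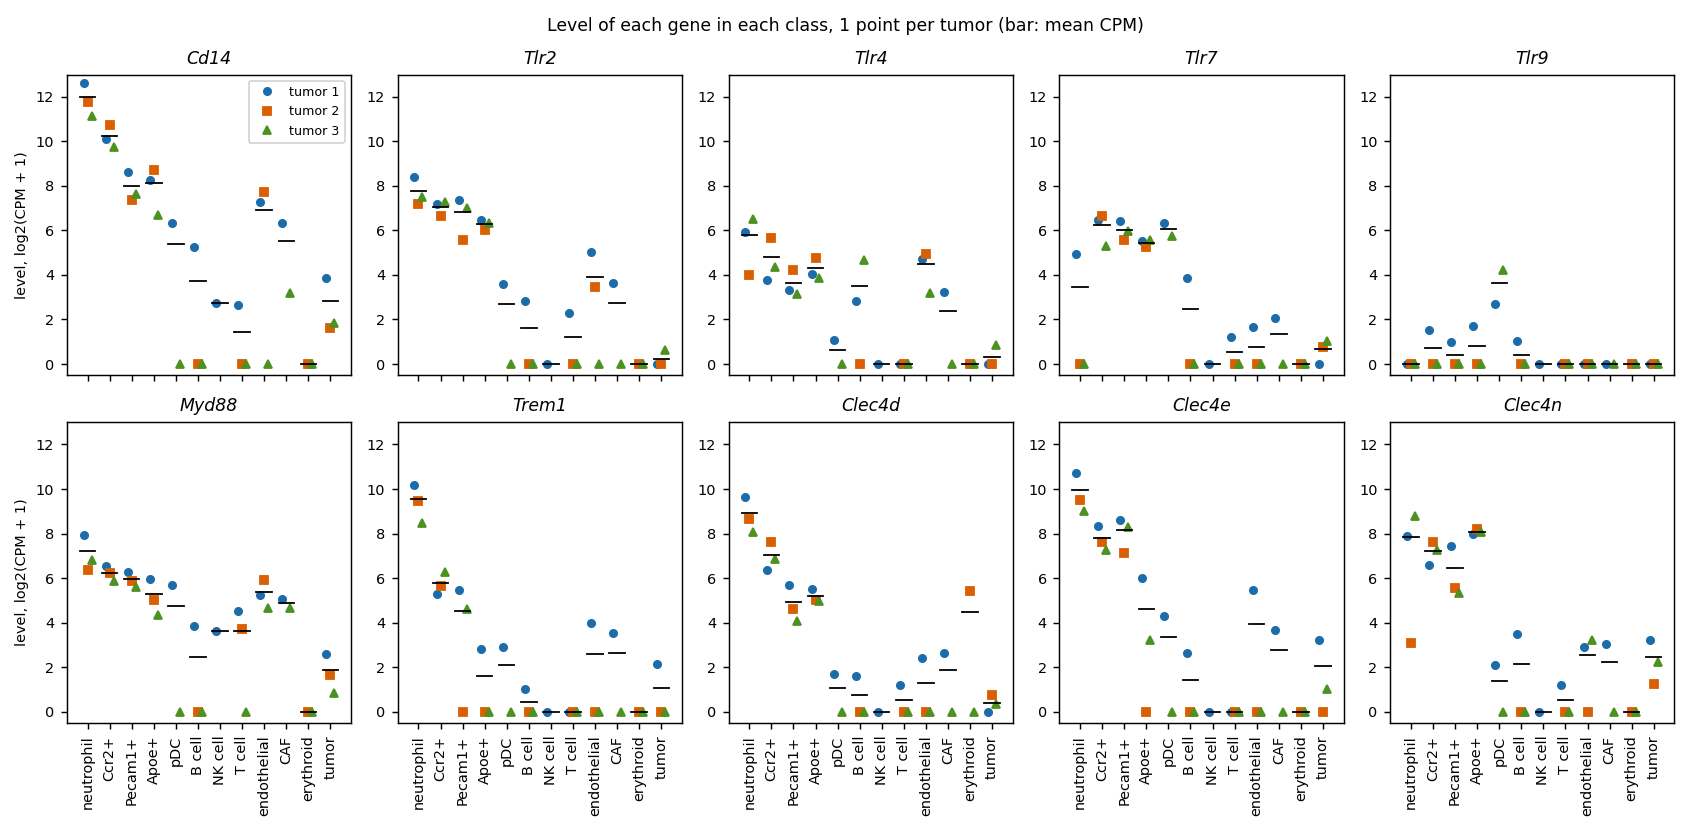
Level of each of the 10 genes in each class, as log2(CPM + 1), with 1 point per tumor sum and a bar at the mean CPM. Cd14, Trem1, Clec4d and Clec4e were highest in neutrophil-like cells in each tumor, Clec4n had its highest mean in Apoe+-like cells, and Tlr9 was near 0 outside the plasmacytoid dendritic-like sums (pDC).

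Levels are given for tumors 1, 2 and 3 in that order, without further scaling, and means ± SD over tumors. The Ccr2+-like sums of tumors 2 and 3 held only 40893 and 51793 UMIs, where 3 UMIs give 73.4 and 57.9 CPM. Cd14, on chromosome 18 from 36725067 to 36726798, stood in neutrophil-like cells at 6305, 3517 and 2285 CPM, a mean of 4036 ± 2060 CPM (SD, n = 3). The next class was the Ccr2+-like subset at 1090, 1687 and 849.5 CPM. The lowest neutrophil-like sum was above the highest sum of any other class. Pecam1+-like cells (389.4, 163.2 and 199.3 CPM) and Apoe+-like cells (308.8, 422.6 and 104.0 CPM) overlapped each other. Endothelial-like cells had 155.9 and 209.3 CPM in tumors 1 and 2 and no UMI in tumor 3, whereas tumor cells had 13.5, 2.09 and 2.63 CPM.

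Tlr4, the lipopolysaccharide receptor, stood at 59.4, 15.0 and 89.6 CPM in neutrophil-like cells, from 42, 2 and 4 UMIs, so that the values of tumors 2 and 3 rest on very few molecules. The Ccr2+-like subset had 12.6, 48.9 and 19.3 CPM, from 27, 2 and 1 UMIs. Endothelial-like cells had 25.6, 29.9 and 8.20 CPM, from 12, 3 and 1 UMIs. The ranges of these classes overlapped. Tlr2 stood at 333.9, 142.5 and 179.2 CPM in neutrophil-like cells. It stood at 144.7, 97.8 and 154.5 CPM in the Ccr2+-like subset, from 309, 4 and 8 UMIs. The Pecam1+-like subset had 163.7, 46.6 and 129.0 CPM and the Apoe+-like subset 88.1, 63.4 and 79.4 CPM, and the neutrophil-like range overlapped those of the Ccr2+-like and Pecam1+-like subsets.

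Tlr7 had another order of classes. It was found in Ccr2+-like cells at 88.5, 97.8 and 38.6 CPM, in Pecam1+-like cells at 84.9, 46.6 and 62.5 CPM and in Apoe+-like cells at 44.6, 37.0 and 46.5 CPM. The Ccr2+-like values of tumors 2 and 3 rest on 4 and 2 UMIs. Plasmacytoid dendritic-like cells had 78.7 CPM in tumor 1 and 52.8 CPM in tumor 3, the latter from 3 UMIs, and its range overlapped those of the Ccr2+-like and Pecam1+-like subsets. The lowest Pecam1+-like sum (46.6 CPM, 8 UMIs) and the highest Apoe+-like sum (46.5 CPM, 17 UMIs) were nearly equal. Neutrophil-like cells had 29.7 CPM in tumor 1 and no UMI in tumors 2 and 3, where a count of 0 allows up to 22.5 and 67.2 CPM (3 UMIs per sum). B cell-like cells had 13.4 CPM in tumor 1, from 13 UMIs, and none in tumors 2 and 3, whose smaller sums allow up to 119.8 and 74.2 CPM.

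Tlr9 was scarce, with 16 UMIs in the kept cells of tumor 1, none in tumor 2 and 1 in tumor 3. Of the 16, plasmacytoid dendritic-like cells held 5, Apoe+-like and Ccr2+-like cells 4 each, Pecam1+-like cells 2 and B cell-like cells 1, and the single UMI of tumor 3 was in a plasmacytoid dendritic-like cell. The level in that class was 5.46 and 17.6 CPM, and no other sum exceeded 2.23 CPM. No UMI was found in any neutrophil-like, T cell-like, endothelial-like, CAF-like or tumor sum. The value of tumor 3 is a single UMI, below the 52.8 CPM that 3 UMIs would give in that sum, so no fold is given. The gene did not pass the filter on low counts. When all 19357 genes with a count were kept, it was called higher than in the reference classes both in plasmacytoid dendritic-like cells, on 6 UMIs, and in the monocyte/macrophage-like subsets, on 10. The adjusted p-values by edgeR's quasi-likelihood test were 1.85e-04 (higher in 2 of 2 tumors) and 0.00758 (higher in 1 of 3). It was not called between plasmacytoid dendritic-like and B cell-like cells (adjusted p = 0.827 by edgeR).

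Myd88 was found in many classes. It stood at 241.9, 82.5 and 112.0 CPM in neutrophil-like cells, at 93.2, 73.4 and 57.9 CPM in the Ccr2+-like subset and at 76.4, 58.3 and 46.9 CPM in the Pecam1+-like subset. The Ccr2+-like values of tumors 2 and 3 rest on 3 UMIs each. Myd88 was also found outside these lineages, at 36.3, 59.8 and 24.6 CPM in endothelial-like cells and at 32.5 and 24.0 CPM in the CAF-like sums of tumors 1 and 3. Tumor cells had 5.05, 2.09 and 0.790 CPM.

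Trem1 stood at 1174, 705.0 and 358.4 CPM in neutrophil-like cells, a mean of 745.8 ± 409.4 CPM (SD, n = 3). The Ccr2+-like subset was next at 37.4, 48.9 and 77.2 CPM, from 80, 2 and 4 UMIs. The Pecam1+-like subset had 42.9, 0 and 23.4 CPM, and the Apoe+-like subset had 11 UMIs in tumor 1 (6.13 CPM) and none in the others. The lowest neutrophil-like sum lay above all others.

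Among the lectins, Clec4d stood at 800.7, 397.5 and 268.8 CPM in neutrophil-like cells and at 81.9, 195.6 and 115.8 CPM in Ccr2+-like cells, with no overlap. Clec4e stood at 1698, 720.0 and 515.2 CPM in neutrophil-like cells. The Pecam1+-like subset was next for Clec4e by its mean, at 391.3, 139.9 and 312.6 CPM, and overlapped the Ccr2+-like subset at 321.6, 195.6 and 154.5 CPM, whereas the Apoe+-like subset had 63.0, 0 and 8.21 CPM. Clec4n, though it lies beside them, was ordered otherwise. Its highest mean was in Apoe+-like cells, at 254.7, 290.6 and 265.5 CPM (270.3 ± 18.4 CPM (SD, n = 3)). Neutrophil-like cells had 236.3, 7.50 and 448.0 CPM of Clec4n, and their tumor 2 sum held 1 UMI of it beside 53 of Clec4d and 96 of Clec4e. The ranges of Clec4n in these classes overlapped.

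Neutrophil-like cells were first set against the unweighted mean of the 3 monocyte/macrophage-like subsets. Of the 9 genes tested, 7 were higher in neutrophil-like cells, where 9.33% of all 8136 genes tested were called higher, and none was lower. Trem1 had a log2 fold change of 6.0 ± 0.66 (SE), Clec4d of 3.85 ± 0.44, Cd14 of 3.79 ± 0.70 and Clec4e of 3.58 ± 0.72. Their adjusted p-values by edgeR's quasi-likelihood test were 8.17e-07, 5.74e-07, 3.99e-04 and 0.00109, and each was higher in 3 of 3 tumors with no overlap of the sums. Tlr4 (2.15 ± 0.58, adjusted p = 0.0138, 2 of 3 tumors), Myd88 (1.96 ± 0.54, adjusted p = 0.014, 3 of 3) and Tlr2 (1.61 ± 0.51, adjusted p = 0.0363, 3 of 3) passed the edgeR threshold with sums that overlapped. Clec4n (0.85 ± 0.58, adjusted p = 0.402) and Tlr7 (-1.09 ± 0.62, adjusted p = 0.293) did not, although every neutrophil-like sum of Tlr7 was below every subset sum. In tumor 3 that sum is a count of 0 that allows more than the subsets had. The median log2 fold change of the 9 genes was 2.15, beside 0.08 over all genes. These values are from the fit without the tumor as a block. With each tumor as a block 7 of the 9 were again higher, where 14.0% of all genes were. Clec4n and Tlr7 were again not called (adjusted p = 0.346 and 0.0933 by edgeR).

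Fold changes use edgeR's scaling factors, which in neutrophil-like sums were 0.474, 0.914 and 1.36. With total UMIs as the library size the median over all genes was -0.27 and the split went from 759 higher and 311 lower to 544 and 685. Tlr7 was then called lower at -1.77 (adjusted p = 0.0308 by edgeR), while Tlr2 and Tlr4 were not called. Tlr2 and Myd88 lost their calls without any 1 of the tumors, by DESeq2 and with at least 20 cells per sum. Tlr2 also lost its call without the filter on low counts, with the clustering at resolution 1.5 or without integration, and with the other processor kernel, and its adjusted p over all alternatives ranged from 0.00152 to 0.464. DESeq2 did not call Clec4e either (adjusted p = 0.0989), and Tlr4 was not called without tumor 3 (adjusted p = 0.0875 by edgeR). The mitochondrial share of UMIs was 0.774% to 1.71% in neutrophil-like sums and 3.40% to 6.74% in the subsets, and its part in the result was not tested.

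**Figure D2:**
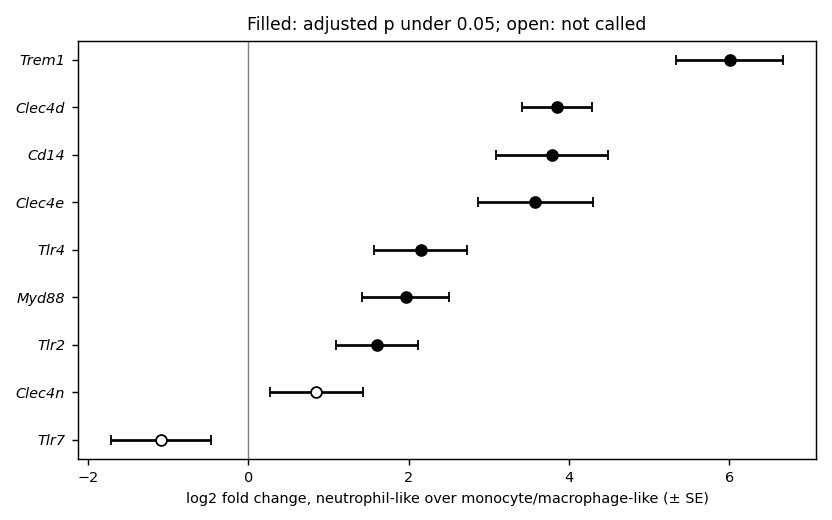
Log2 fold change of each tested gene in neutrophil-like cells over the mean of the monocyte/macrophage-like subsets, with bars of 1 SE on either side from edgeR. Filled points had an adjusted p under 0.05, with Trem1 at 6.0, and Clec4n at 0.85 and Tlr7 at -1.09 are open.

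The 3 subsets were then compared with each other. Without the tumor as a block none of the 9 genes was called in any subset by edgeR, nor by DESeq2, which gave an adjusted p for 8 of them in the Ccr2+-like comparison and for 9 in the others, although 3, 1 and 3 of them had an unadjusted p under 0.05 in edgeR for the Ccr2+-like, Pecam1+-like and Apoe+-like subset. Of all genes, 0.393% were called for the Ccr2+-like, 0.430% for the Pecam1+-like and 1.75% for the Apoe+-like subset. All classes of a tumor come from the same animal, and with each tumor as a block these shares were 1.49%, 2.80% and 5.30%. Calls without the block were made when genes of low count were kept, for Cd14 in the Ccr2+-like subset (2.03, adjusted p = 0.00414 by edgeR), Clec4e in the Pecam1+-like subset (1.72, 0.0431) and Trem1 (-3.09, 0.00163) and Clec4e (-3.03, 5.77e-05) in the Apoe+-like subset. Clec4e was also called in the Pecam1+-like and Apoe+-like subsets without tumor 1 (adjusted p = 0.0111 and 9.55e-04 by edgeR).

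With that block, 3 of 9 genes were called for the Apoe+-like subset. Clec4e was lower at -3.46 ± 0.54 (adjusted p = 8.32e-05 by edgeR, against 0.175 without the block) and Trem1 lower at -3.18 ± 0.74 (adjusted p = 0.00726, against 0.178), each in 3 of 3 tumors. The Trem1 sums overlapped. In tumor 2 Trem1 had no UMI in Apoe+-like or Pecam1+-like cells and 2 in Ccr2+-like cells. Clec4n was higher at 1.72 ± 0.47 (adjusted p = 0.0237 by edgeR, against 0.422), in 3 of 3 tumors and with every Apoe+-like sum above every other subset sum. Clec4d, which lies between these lectin genes, was at -0.49 ± 0.43 (adjusted p = 0.703 by edgeR). In the Pecam1+-like subset Clec4e was the 1 gene called with the block, higher at 2.20 ± 0.45 (adjusted p = 0.00317 by edgeR, against 0.794 without it). Its sums overlapped those of the other subsets, and in tumor 2 the Ccr2+-like sum (195.6 CPM) was above the Pecam1+-like one (139.9 CPM). In the Ccr2+-like subset it was Cd14, at 2.09 ± 0.45 (adjusted p = 0.00926 by edgeR, against 0.668), higher in 3 of 3 tumors and without overlap. Clec4d also had every Ccr2+-like sum above every other subset sum, but was not called, at 1.60 ± 0.55 without the block (adjusted p = 0.441 by edgeR) and 1.55 ± 0.45 with it (adjusted p = 0.0819). With the other processor kernel and the block together, an alternative chosen after seeing the data, the same 5 calls were made, at -3.19, -2.92 and 1.74 for Clec4e, Trem1 and Clec4n in the Apoe+-like subset, 2.32 for Clec4e in the Pecam1+-like subset and 1.73 for Cd14 in the Ccr2+-like subset. The Toll-like receptors and Myd88 were called in no subset under either of these fits.

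**Figure D3:**
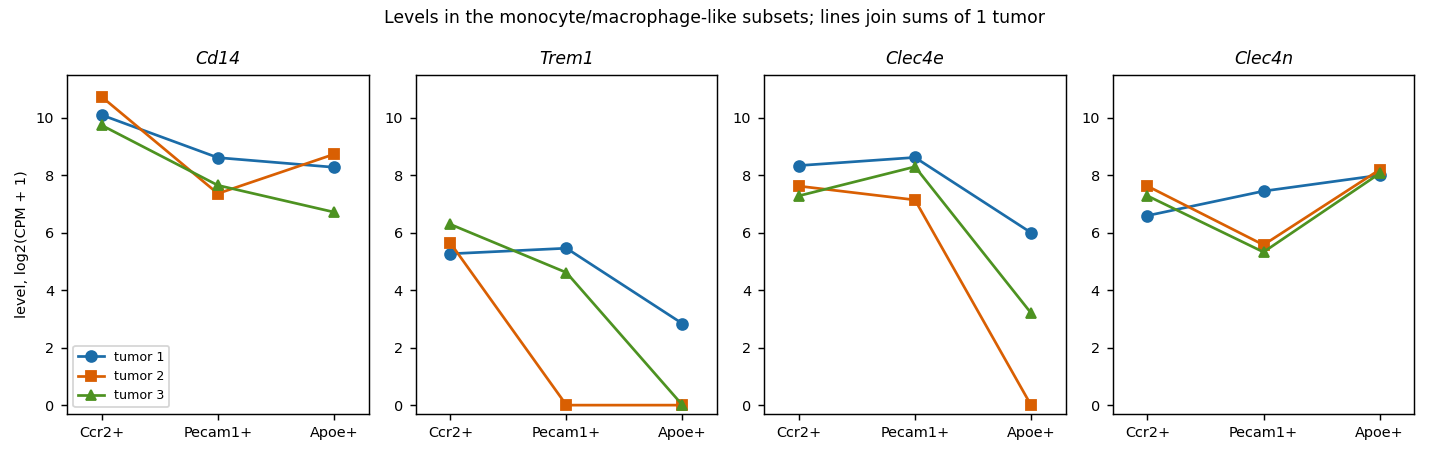
Level of Cd14, Trem1, Clec4e and Clec4n in the 3 monocyte/macrophage-like subsets as log2(CPM + 1), with a line joining the sums of each tumor. Clec4e was lowest in Apoe+-like cells in each tumor, where Clec4n stood at 254.7 to 290.6 CPM.

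Apoe+-like cells had a median of 11990, 1423 and 1668 UMIs in tumors 1, 2 and 3. Depth in this subset thus went with tumor, and the 2 cannot be told apart. The subset joins subclusters of unequal depth, with a median of 1341 and of 11324 UMIs per cell. Leaving out the shallow one, an alternative chosen after seeing the data, left the number of genes called in each subset comparison at 0 without the block, as did the other processor kernel, chosen likewise. Markers of conventional dendritic cells summed to 21.5 to 213.5 CPM over the subset sums, and their part in the values was not tested.

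Set against the 4 reference classes, neutrophil-like cells had all 9 tested genes called higher, where 16.3% of all genes were, with log2 fold changes from 3.96 (Myd88) to 9.24 (Trem1). The monocyte/macrophage-like subsets together also had 9 of 9, where 15.3% of all genes were called higher, from 1.99 (Myd88) to 5.30 (Clec4e). These comparisons share their reference sums. For Tlr7 in neutrophil-like cells (4.12 ± 0.73, adjusted p = 9.71e-05 by edgeR) the level was higher in 1 of 3 tumors, since no UMI was found in tumors 2 and 3. Trem1 in the monocyte/macrophage-like subsets was called at 3.23 ± 0.83 (adjusted p = 0.00442 by edgeR) but not by DESeq2 (adjusted p = 0.12) or without tumor 1 (adjusted p = 1 by edgeR). Tlr4 in these subsets was not called with the authors' corrected counts (adjusted p = 0.0555 by edgeR).

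In B cell-like cells 1 of 9 genes was called higher than in the reference classes, where 4.77% of all genes were. This was Tlr7, at 3.1 ± 0.84 (adjusted p = 0.022 by edgeR), on 13 UMIs of tumor 1 and higher in 1 of 3 tumors. The call was lost without tumor 2 or tumor 3, by DESeq2 (adjusted p = 0.204), with the authors' corrected counts and with at least 20 cells per sum, and without tumor 1 the gene did not pass the filter. In plasmacytoid dendritic-like cells Tlr7 was also the 1 gene of 9 called higher, where 8.09% of all genes were, at 5.47 ± 0.67 (adjusted p = 1.71e-06 by edgeR) and in 2 of 2 tumors with no overlap. Without tumor 1 it did not pass the filter and was not tested. Cd14 stood at 80.8 CPM in the plasmacytoid dendritic-like sum of tumor 1 and at 0 in tumor 3, and the 9 neutrophil markers summed to 1075 and 35.2 CPM in these sums.

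Between plasmacytoid dendritic-like and B cell-like cells none of 9 genes was called by edgeR (1 had an unadjusted p under 0.05) or by DESeq2, where 2.34% of all genes were called by edgeR. Tlr7 was at 2.37 ± 0.88 (adjusted p = 0.233), and with each tumor as a block at 2.39 ± 0.73 (adjusted p = 0.0464 by edgeR), where 5.52% of all genes were called. The B cell-like sums of tumors 2 and 3 held no UMI of Tlr7 or Tlr9, where a count of 0 allows up to 119.8 and 74.2 CPM.

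Shares of cells with at least 1 UMI were compared after each cell had been thinned to 500 UMIs, since depth differed between classes, and no cell of the classes below had fewer. Cd14 was found in 84.8% (95% exact binomial interval 79.5 to 89.1) of the 236 neutrophil-like cells of tumor 1, in 79.6% (66.5 to 89.4) of 54 in tumor 2 and in 59.1% (36.4 to 79.3) of 22 in tumor 3. It was found in 27.0%, 36.4% and 22.2% of Ccr2+-like cells. Trem1 was found in 42.0%, 27.8% and 18.2% of neutrophil-like cells and in at most 2.50% of any monocyte/macrophage-like subset. Intervals cover counting error only.

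Clec4e was found in 49.2%, 25.9% and 18.2% of neutrophil-like cells and in 19.0%, 4.65% and 12.5% of Pecam1+-like cells. Clec4d was found in 33.1%, 18.5% and 22.7% of neutrophil-like cells. Clec4n was found in 13.2%, 10.2% and 11.8% of Apoe+-like cells and in 12.3%, 0% and 9.09% of neutrophil-like cells, where 0 of 54 cells limits the share with a UMI at this thinned depth to 5.56%. Of 117, 46 and 63 T cell-like cells, none had a UMI of any of the 10 genes after thinning, which limits the share with a UMI at this depth, not the share expressing a gene, to 2.56%, 6.52% and 4.76%. Without thinning, 19.7%, 2.17% and 0% of T cell-like cells had a UMI of at least 1 of the 10 genes, against 100%, 98.2% and 90.9% of neutrophil-like cells. With a median of 5808, 1534 and 1477 UMIs in T cell-like and of 2608, 2232 and 2072 in neutrophil-like cells, Cd14 was then found in 3.42%, 0% and 0% of the former and in 95.8%, 94.4% and 77.3% of the latter.

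**Figure D4:**
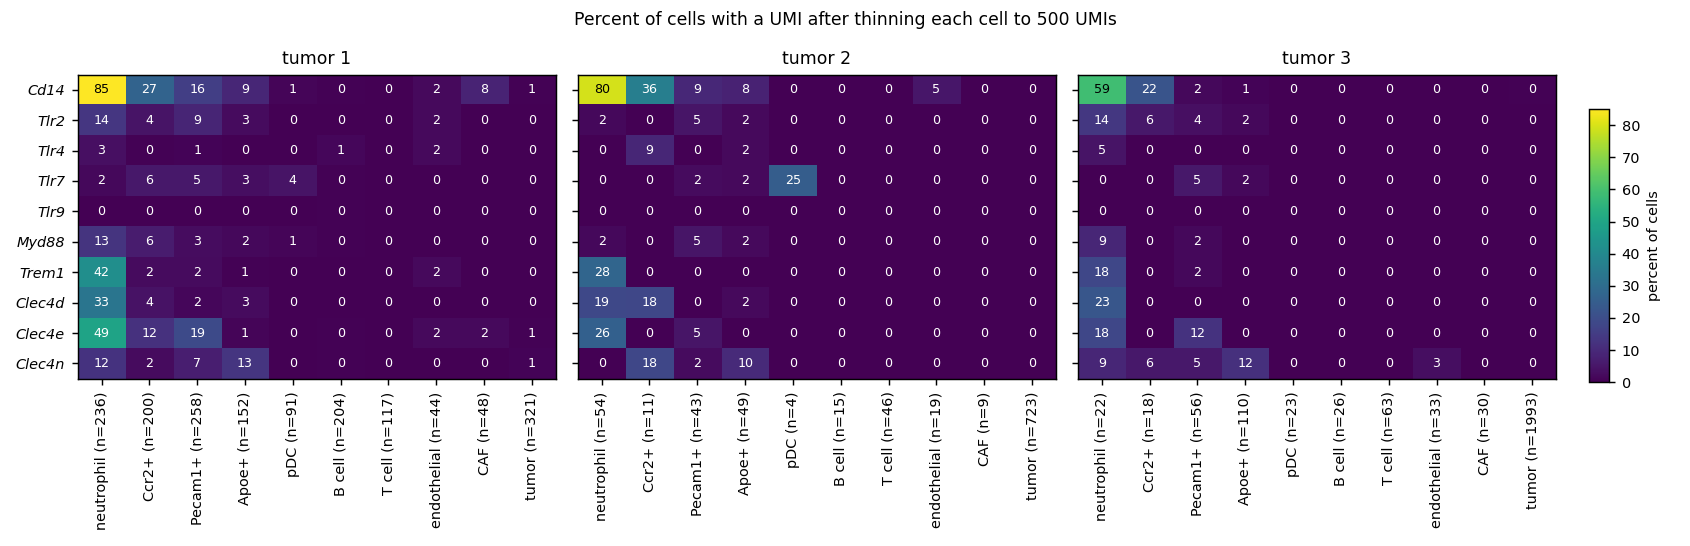
Percent of cells with at least 1 UMI of each gene, in 10 classes of each tumor, after thinning each cell to 500 UMIs, with the number of cells in brackets. Cd14 was found in 59.1% to 84.8% of neutrophil-like cells, and at this depth no T cell-like cell had a UMI of any of the 10 genes.

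The genes were often found in the same neutrophil-like cells. After thinning, 47.9%, 14.8% and 22.7% of these cells had UMIs of 3 or more of the 10 genes, against at most 5.56% in any monocyte/macrophage-like subset. Without thinning, Trem1 and Clec4e were found together in 74.6%, 55.6% and 13.6% of neutrophil-like cells. The share of tumor 3 was 3 of 22 cells. Over the tumors pooled, Trem1 was found in 78.85% and Clec4e in 82.69% of the neutrophil-like cells. Tumor 1 gave 236 of these 312 cells, so the pooled shares mostly describe that tumor. Genes found in many cells share cells by their frequency alone, and an excess over that was not tested. The mean number of the 10 genes found per thinned cell was 2.53, 1.56 and 1.55 in neutrophil-like cells and 0.0249, 0.00415 and 0.00652 in tumor cells.

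The source of each transcript in a tumor also depends on the number of cells of each class, which single-cell capture may change. Neutrophil-like and monocyte/macrophage-like cells together were 44.2%, 12.9% and 8.19% of kept cells. An unnamed cluster with most markers of the monocyte/macrophage type is not counted there. It was 5.28%, 0.901% and 0.159% of kept cells. The named classes held 94.2% to 95.5% of the Cd14 UMIs in each tumor, 97.5% to 100% of those of Trem1 and 94.3% to 97.3% of those of Clec4d. For Myd88 they held 65.2% to 79.6%, and for Tlr4 70.6% to 77.9%. Neutrophil-like cells alone held 80.0%, 95.9% and 61.5% of the Trem1 UMIs. For Clec4e, neutrophil-like cells held 41.1%, 75.0% and 19.5% and Pecam1+-like cells 28.1%, 18.8% and 67.8%, so that the latter held most in tumor 3, which had 22 neutrophil-like cells. Apoe+-like cells held 36.7%, 72.4% and 64.7% of the Clec4n UMIs in kept cells. Barcodes that the authors did not keep held a further 174, 17 and 205 Clec4n UMIs, which in tumor 3 was 57.8% of all UMIs of the gene.

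**Figure D5:**
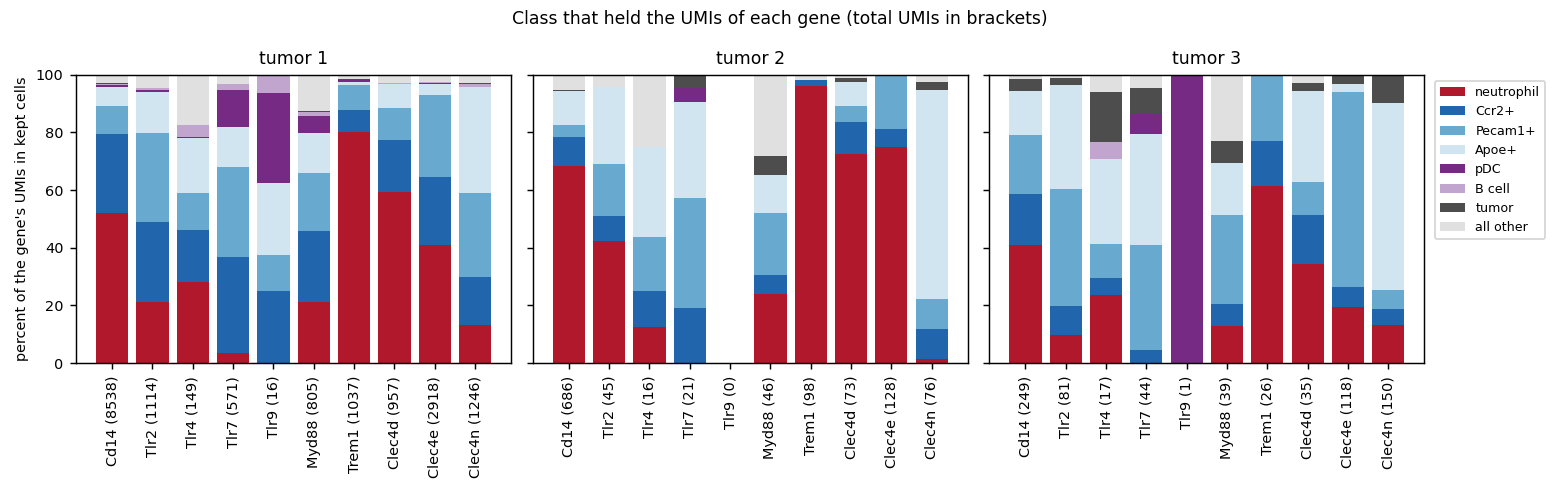
Percent of the UMIs of each gene in kept cells that came from each class, per tumor, with the total number of UMIs in brackets. Neutrophil-like cells held 80.0%, 95.9% and 61.5% of Trem1 UMIs in tumors 1, 2 and 3, and Apoe+-like cells 36.7%, 72.4% and 64.7% of Clec4n UMIs.

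Around these genes, 62 further genes of the same pathways were listed and 45 were tested. In neutrophil-like against monocyte/macrophage-like cells 13 were higher and 6 lower, where 9.33% and 3.82% of all genes were. With each tumor as a block 18 were higher and 9 lower, where 14.0% and 6.91% of all genes were. The largest differences among those higher were Clec5a, a DAP12-coupled lectin (3.55 ± 0.63), Trem3, a relative of Trem1 (3.40 ± 0.57), and Fpr1, a formyl peptide receptor (3.36 ± 0.62). Among those lower they were the lectins Clec4b1 and Clec4a1 (-4.97 ± 0.88) and Ly86, the partner of the TLR4 relative Cd180 (-4.31 ± 0.92). Clec4b1 had no UMI in neutrophil-like cells and a mean of 91.5 CPM in the subsets. By role, and beside the same shares over all genes, 4 of 6 tested genes grouped as negative regulators were higher. Nfkbiz (2.33 ± 0.61) and Nfkbia (2.28 ± 0.60) were among them. The grouping is loose, since Nfkbiz does not act as a negative regulator only. Of 8 tested other C-type lectins, 1 was higher and 3 were lower. The adaptor Tirap was the 1 of 6 Toll-like receptor adaptors and kinases that passed, at 3.27 ± 0.56. With the block 2 more genes of this group passed, in opposite directions. The kinase Irak2 was higher (1.88 ± 0.56, adjusted p = 0.0145 by edgeR) and Irf5 was lower (-2.52 ± 0.55, adjusted p = 9.07e-04). Hsp90b1, a chaperone of Toll-like receptors, was lower at -2.44 ± 0.53.

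Between the subsets 1 pathway gene was called without the block. Of all genes, 0.393%, 0.430% and 1.75% were called for the Ccr2+-like, Pecam1+-like and Apoe+-like subset. The gene was the lectin Clec10a, which was lower in the Pecam1+-like subset (-3.92 ± 0.83, adjusted p = 0.0289 by edgeR) and higher in the Apoe+-like subset (2.99 ± 0.62, adjusted p = 0.009). Neither call was made by DESeq2 (adjusted p = 0.407 and 0.455), without any 1 of the tumors, with the authors' corrected counts or with at least 20 cells per sum, and the first was also lost at resolution 0.6. With the clustering at resolution 1.5 or without integration, with cells of at least 1000 UMIs only, and with the other processor kernel, Clec10a was called higher in the Ccr2+-like and not in the Apoe+-like subset. With that kernel it stood at 3.51 ± 0.61 in the Ccr2+-like subset (adjusted p = 0.00908 by edgeR, against 0.93 ± 0.70 and 1) and at 0.55 ± 0.60 in the Apoe+-like one (adjusted p = 0.909). With each tumor as a block 9 of the 45 genes were higher and 1 lower in the Pecam1+-like subset, where 2.80% of all genes were called in either direction. Among those higher were Trem3 (2.77 ± 0.45) and Fpr2 (2.81 ± 0.48). In the Apoe+-like subset 2 were then higher and 4 lower, with Trem3 (-3.33 ± 0.56) and Fpr2 (-2.94 ± 0.58) among the latter, where 5.30% of all genes were called. In the Ccr2+-like subset 1 was higher, where 1.49% of all genes were called in either direction.

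Against the reference classes 29 of 45 were higher and 1 lower in neutrophil-like cells, where 16.3% and 5.56% of all genes were. In the monocyte/macrophage-like subsets 34 were higher, where 15.3% of all genes were. These included Unc93b1, which brings TLR7 and TLR9 to endosomes (4.15 ± 0.48), and the adaptors Fcer1g (5.85 ± 0.62) and Tyrobp (5.49 ± 0.61). In B cell-like cells 9 of the 45 were higher, where 4.77% of all genes were. They were led by Ly86 (5.91 ± 0.62) and included Syk (5.27 ± 0.57) and Unc93b1 (3.04 ± 0.59). In plasmacytoid dendritic-like cells 15 were higher, where 8.09% of all genes were. They were led by Clec10a (9.43 ± 0.68), Ly86 (7.14 ± 0.63) and Clec12a (6.85 ± 0.63). They included Unc93b1 (4.86 ± 0.59) and Irf7, the interferon regulator downstream of TLR7 and TLR9 (3.58 ± 0.60). With each tumor as a block 30 were higher in neutrophil-like cells, 35 in the monocyte/macrophage-like subsets, 10 in B cell-like and 18 in plasmacytoid dendritic-like cells, where 19.3%, 18.9%, 6.76% and 10.3% of all genes were. Between plasmacytoid dendritic-like and B cell-like cells 4 were higher in the former, where 2.34% of all genes were called in either direction. With each tumor as a block 7 were higher and 1 lower, where 5.52% of all genes were called.

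Over the 31 sums, the genes whose log2 CPM was most like that of Cd14 were Il1b, Ccrl2 and Rab20 (Pearson r = 0.95, 0.95 and 0.94), and those most like Tlr2 were Ccrl2, Igsf6 and Il1b (0.96, 0.96 and 0.96). Trem1 was most like Mmp8, Mcemp1 and Nlrp3 (0.93, 0.92 and 0.91), and Clec4e like Mcemp1, Ifitm6 and Hp (0.97, 0.96 and 0.95). Clec4d was most like Cd300lb, 1600010M07Rik and Smox (0.93, 0.93 and 0.93), and Clec4n like Igsf6, Rab32 and Cd300lb (0.91, 0.89 and 0.88). Tlr7 was most like P2ry6, Tifab and Tom1 (0.93, 0.92 and 0.91), Tlr4 like Tnfaip2, Ltc4s and Ccrl2 (0.83, 0.82 and 0.81) and Myd88 like Card19, Snap23 and Pxn (0.94, 0.94 and 0.94). Among the 9 genes themselves r ranged from 0.32 for Tlr7 and Trem1 to 0.95 for Cd14 and Tlr2. The sums share tumors and classes, so these values are a description only.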

How the data were processed

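Whole TH-MYCN tumors from 3 mice were dissociated and profiled with 10x 3′ chemistry. Per the submitters' processing notes, reads were aligned to mm10 with Cell Ranger 3.1.0 and processed with Seurat 3.1.5. The authors deposited raw UMI counts per barcode and, for the cells they kept, normalized values on a natural log scale. The normalized values equal ln(1 + count) of whole numbers. These were taken to be counts corrected for depth, called the authors' corrected counts here, which the sources do not state. The normalized values listed the kept cells and served in 1 alternative.

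The members and gene lists were chosen with earlier results of these data known. Kept cells were clustered in Seurat 5.3.0 (R 4.3.3) after integration of the tumors, with 2000 variable genes from which the 10 genes and the 62 pathway genes were left out, 30 dimensions, 20 neighbors and resolution 1, and monocyte/macrophage-like cells again at 0.5. A cluster was named when at least 3 markers of a type were at 2-fold or more over the median of the other clusters and in at least 10% of its cells, with 2 more markers than the next type. That margin was added after the clusters were seen. Other clusters stayed unnamed, as did any whose top 10 genes by fold held more markers of another type. So did clusters of low depth with no marker of their own type among those genes. The unnamed clusters held 231, 185, 116 and 26 cells, which entered no class. That of 116 cells passed 6 of 10 monocyte/macrophage markers, beside 5 of the CAF type. Doublets were not called. Each class with at least 10 cells in a tumor gave a sum of raw counts, and 8136 genes over 31 sums were tested with edgeR 4.0.16 (quasi-likelihood, TMM scaling, class as the only term, Benjamini-Hochberg adjusted p under 0.05). The fit was also run on counts simulated without tumor effects, a run that does not cover sums sharing a tumor. DESeq2 1.42.0, other scaling, filters, clusterings, cell minimums, corrected counts and leaving out each tumor were alternatives. Linear algebra ran on a fixed processor kernel, because the clustering changed with the kernel. It was fixed after results on another kernel were known, and a second kernel was an alternative added after seeing the data. For likeness a prior count of 2 was used. The pathway genes named were the 3 with the largest change per direction at a mean of at least 20 CPM, and those named by role were chosen after their values were seen. Total UMIs in kept cells were 12628163, 2740537 and 5215401 in tumors 1, 2 and 3, so tumor 1 sets most values at low levels. Each tumor is 1 animal. Deviations from class means of the same tumor correlated at 0.131 to 0.682 over 18 pairs of classes, against -0.456 to 0.226 over 36 pairs from different tumors, and blocked values stand beside the subset results, the pathway counts and other results whose calls they change.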

Additional observations from a re-analysis of the deposited data

Results flagged for a closer look

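Barcodes that the authors did not keep, which no comparison used, also held UMIs of the 10 genes. Their summed level was 201 CPM in tumor 1, 9.12 CPM in tumor 2 and 28.1 CPM in tumor 3, against 1374, 433.9 and 145.7 CPM in kept cells. These UMIs were 5.15%, 12.77% and 35.37% of all those of the 10 genes in tumors 1, 2 and 3. Groups of 3 tumors are too small to test for single samples that stand apart.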

How the results depend on the processing

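The number of the 9 tested genes called was recomputed under 16 alternatives. Of 81 values (9 genes in 9 comparisons), 27 were called as reported, none of these changed direction, and 20 were called in every alternative that gave a value. A further 9 were called under an alternative only. In neutrophil-like against monocyte/macrophage-like cells 7 genes were called, 4 to 5 when 1 tumor was left out, and 4 by DESeq2. With each tumor as a replicate block 1 gene was called instead of 0 for the Ccr2+-like subset, 1 for the Pecam1+-like subset, 3 for the Apoe+-like subset and 1 between plasmacytoid dendritic-like and B cell-like cells. The block changed no other count of these genes, and with the other processor kernel and the block these counts were 1, 1, 3 and 1. Without the filter on low counts all 10 genes were tested, Tlr9 included. Then 1 gene was called for the Ccr2+-like subset, 1 for the Pecam1+-like subset and 2 for the Apoe+-like subset. Against the reference classes 4 were called for plasmacytoid dendritic-like cells and 10 for the monocyte/macrophage-like subsets, Tlr9 among both. When 1 tumor was left out, 0 to 1 genes were called for the Pecam1+-like subset, 0 to 1 for the Apoe+-like subset, 0 to 1 for plasmacytoid dendritic-like cells and 0 to 0 for B cell-like cells. For B cell-like cells 0 instead of 1 were called by DESeq2, with the authors' corrected counts and with at least 20 cells per sum. With the other processor kernel 6 instead of 7 genes were called in neutrophil-like against monocyte/macrophage-like cells. Leaving out a tumor reduces the samples, and without tumor 1 also the genes tested; the cause of the other changes was not tested. The share of neutrophil-like cells with any of the 10 genes was 86.97% at 500 UMIs (mean of 3 tumors) and 96.35% without thinning. Shares for single genes rose more without thinning, from 31.09% to 71.02% for Clec4e.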
